A study of Mus musculus with 5 samples.

Results

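The complement system was followed in neonatal mouse liver through 36 genes. They were chosen by gene symbol from a given list, and all 36 were found among the 36401 genes of the deposited tables. Of these, 34 passed the filter on low counts and were tested, while Cfd and Cd46 were too low to test. By textbook cell source, 24 members are made mainly by hepatocytes, 7 are made or carried mainly by macrophages, and 5 have another or a general source. This split is background knowledge, since whole liver tissue does not show which cell a transcript came from.

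Livers of Mdr2+/- pups (3 libraries) were compared with livers of Mdr2+/+ pups (2 libraries). All pups were BALB/C mice on day 10 of life, with the genotypes kept as littermates, and lobe 1 of the liver was profiled by RNA sequencing. The line was made by crossing Mdr2-/- mice back to BALB/c, for a number of generations that the labels do not give. Mdr2 is the older name of Abcb4, the canalicular transporter that moves phosphatidylcholine into bile, and by its title the series concerns an inflammatory form of biliary atresia, a bile duct disease of infants. The comparison addresses what the loss of 1 Mdr2 allele goes with in liver RNA. Whether every library came from its own animal is not stated outright, so p-values measure the spread between libraries, which may be technical.

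Complement is a set of plasma proteases, their substrates and their receptors that marks and lyses microbes and damaged cells. C1q starts the classical pathway and mannose-binding lectins and ficolins start the lectin pathway. Both cleave C4 and C2, while factor B and properdin drive the alternative pathway. All 3 routes cleave C3, after which C5 to C9 assemble into a membrane pore, and soluble and membrane-bound regulators hold the cascade in check. The liver makes most of the plasma proteins, whereas C1q comes mainly from macrophages, which in liver are the resident Kupffer cells.

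Library totals were 12991301 to 17312851 estimated counts in Mdr2+/- and 11944157 and 14644529 in Mdr2+/+. Levels are normalised CPM, the count of a gene scaled to a common library size with TMM factors, and the log2 fold change (log2FC) is Mdr2+/- over Mdr2+/+. Abcb4 itself had 101, 97.7 and 92.6 CPM in Mdr2+/- livers, against 162 and 162 CPM in Mdr2+/+ livers (log2FC -0.74, SE 0.06, adjusted p = 3.4e-04). Abcb4 lies on chromosome 5, and 0 of the 36 members do. Hepatocyte markers were abundant in every library, with Alb at 138196 ± 7546 CPM in Mdr2+/- and 125300.0 ± 8792 CPM in Mdr2+/+ livers (SD, n = 3 and 2). Alb was not called (log2FC 0.14, adjusted p = 0.236). It does not stand for its list: of 8 hepatocyte markers 3 had a positive log2FC, and the median log2FC was -0.10.

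Of the 34 tested members, 10 rose and 2 fell in Mdr2+/- livers by edgeR's quasi-likelihood test at an adjusted p of 0.05. Among all 13959 tested genes 6.63% rose and 5.41% fell, 12% in either direction. All 10 genes that rose are hepatocyte-made: C9, C4a, C3, Hc, Masp1, C4b, Mbl2, Cfb, C8b and C8g. The genes that fell were C1qb, which macrophages make, and Cd55, a membrane regulator. In whole tissue, fewer cells of a type and less RNA per cell cannot be told apart. Hepatocyte-made members had a median log2FC of 0.22 and macrophage-made members one of -0.16, beside a median of 0.00 over all tested genes. In 16 members, all hepatocyte-made, each Mdr2+/- library lay above both Mdr2+/+ libraries, and in 2 each lay below; over all tested genes these shares were 22.9% and 22.7%, 45.5% in either direction. DESeq2 called 11 members higher and 0 lower (4 lower at an unadjusted p under 0.05), beside 4.99% and 3.75% of all genes it tested, 8.74% in either direction.

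**Figure D1:**
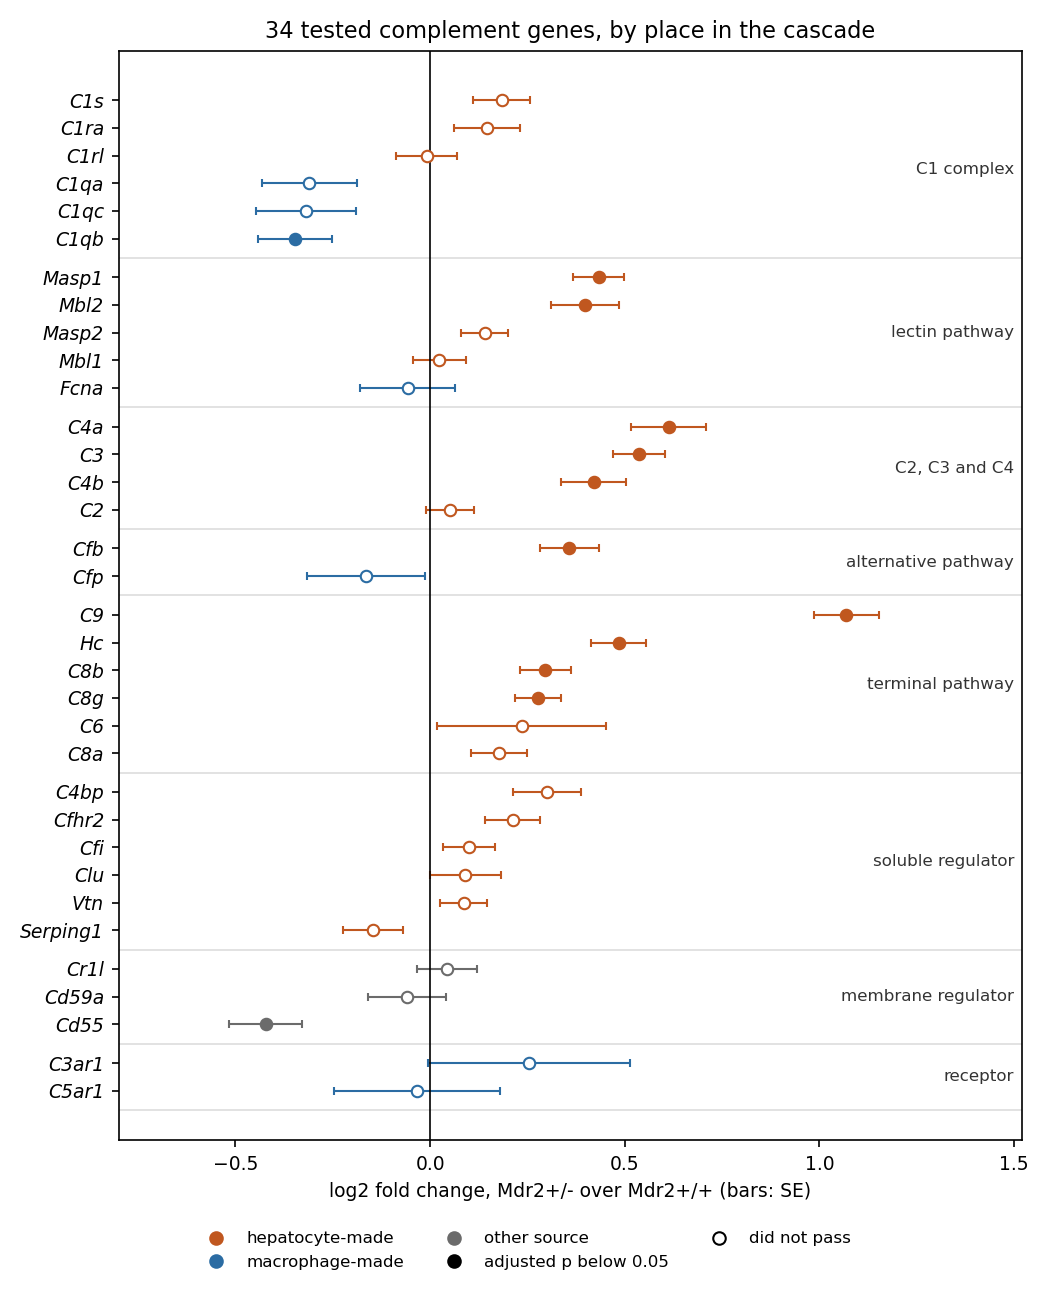
Log2 fold change of the 34 tested complement genes (x axis, Mdr2+/- over Mdr2+/+, bars are SE), grouped by place in the cascade, with colour for textbook cell source and filled points for adjusted p below 0.05. The filled points right of 0 are the 10 hepatocyte-made genes that rose, and those left of 0 are C1qb and Cd55.

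C9 (GRCm38, chr15:6445327-6498751, plus strand) encodes the subunit that polymerises into the wall of the membrane attack pore, and it had the largest rise of the members. Its level was 77.1, 73.5 and 75.5 CPM in Mdr2+/- livers, against 32.8 and 39.3 CPM in Mdr2+/+ livers. The lowest Mdr2+/- library lay well above the highest Mdr2+/+ library, and the Mdr2+/- libraries lay close together. The rise was 2.10-fold (log2FC 1.07, SE 0.08, adjusted p = 1.98e-04). C9 was called in all 12 alternative fits and ranked 158 of the 13959 tested genes by log2FC.

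Hc (chr2:34983331-35061438, minus strand) is the mouse gene of C5, whose cleavage gives the attractant peptide C5a and starts the pore. It had 919, 907 and 823 CPM in Mdr2+/- livers, against 646 and 616 CPM in Mdr2+/+ livers. The groups did not overlap, and the rise was 1.40-fold (log2FC 0.48, SE 0.07, adjusted p = 0.00358). C8b, the beta chain of C8, had 129, 124 and 119 CPM in Mdr2+/- livers, against 98.0 and 104 CPM in Mdr2+/+ livers (log2FC 0.30, SE 0.07, adjusted p = 0.0192). C8g, the small lipocalin-type chain of C8, had 144, 144 and 144 CPM in Mdr2+/- livers, against 116 and 121 CPM in Mdr2+/+ livers (log2FC 0.28, SE 0.06, adjusted p = 0.0173). The log2FC of both C8 chains was smaller than that of C9, a difference between genes that was not tested.

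The alpha chain C8a had 368, 364 and 334 CPM in Mdr2+/- livers, against 301 and 328 CPM in Mdr2+/+ livers. Its groups did not overlap, but it did not pass (log2FC 0.18, SE 0.07, adjusted p = 0.145). C6, an early pore component, was the least abundant terminal gene, with 6.83, 6.07 and 5.64 CPM in Mdr2+/- livers and 6.47 and 3.79 CPM in Mdr2+/+ livers (adjusted p = 0.524). The terminal group held 4 rises among 6 tested genes, beside 6.63% that rose among all tested genes. Its log2FC ran from 0.18 to 1.07. C8b lost its call without Mdr2+/+ replicate 1 (adjusted p = 0.117) or Mdr2+/- replicate 2 (0.0612). C8g lost its call without Mdr2+/+ replicate 1, Mdr2+/- replicate 2 or Mdr2+/- replicate 3 (0.0509 to 0.1000).

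C3 (chr17:57203970-57228136, minus strand) encodes the protein on which all routes converge and whose fragments coat targets for uptake. It had 13856, 14089 and 12694 CPM in Mdr2+/- livers, against 9289 and 9385 CPM in Mdr2+/+ livers. The groups stood far apart relative to their spread, and the rise was 1.45-fold (log2FC 0.54, SE 0.07, adjusted p = 0.00168). Per kilobase of transcript, C3 ranked 16 of 13571 genes in Mdr2+/- and 32 in Mdr2+/+ livers. C3 alone took 1.39, 1.41 and 1.27% of all normalised counts in Mdr2+/- livers, against 0.929 and 0.938% in Mdr2+/+ livers.

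All 36 members together took 2.75, 2.75 and 2.57% of normalised counts in Mdr2+/- livers, against 2.11 and 2.14% in Mdr2+/+ livers. C3 was 50.4, 51.2 and 49.4% of that complement total in Mdr2+/- livers, against 44.0 and 43.9% in Mdr2+/+ livers. The hepatocyte-made members without C3 took 1.32, 1.30 and 1.26% in Mdr2+/- livers, against 1.13 and 1.16% in Mdr2+/+ livers. C3 made up the larger part of the difference in total complement RNA.

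C4b encodes C4, the thioester protein cut by the C1 and lectin proteases, and C4a its near-identical copy, known in mice as sex-limited protein. C4b (chr17:34728380-34743882) and C4a (chr17:34809092-34823464) lie close together on the minus strand, and GENCODE lists C4a as a processed transcript. C4b had 1003, 964 and 873 CPM in Mdr2+/- livers, against 753 and 661 CPM in Mdr2+/+ livers (log2FC 0.42, SE 0.08, adjusted p = 0.0129). C4a had 237, 228 and 193 CPM in Mdr2+/- livers, against 151 and 135 CPM in Mdr2+/+ livers (log2FC 0.61, SE 0.10, adjusted p = 0.00457). Both were above in every Mdr2+/- library. Of the 50-base words of the longest C4a transcript, 35.2% also occur in C4b transcripts, so the split of reads between the copies is uncertain. C4b lost its call without Mdr2+/+ replicate 2 (log2FC 0.33, adjusted p = 0.0682).

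C2 is the protease that C4b binds to form the classical C3 convertase, and Cfb, factor B, is its counterpart in the alternative pathway. Cfb had 813, 767 and 694 CPM in Mdr2+/- livers, against 588 and 594 CPM in Mdr2+/+ livers (log2FC 0.36, SE 0.08, adjusted p = 0.0171). C2 had 1566, 1464 and 1502 CPM in Mdr2+/- livers, against 1451 and 1466 CPM in Mdr2+/+ livers, and its groups overlapped (log2FC 0.05, SE 0.06, adjusted p = 0.637). These are neighbours on chromosome 17, and in the GENCODE annotation a read-through gene, Gm20547, holds 58.0% of the 50-base words of C2 and 81.4% of those of Cfb. Reads of C2 and Cfb may therefore have been divided in a way that the tables do not show. Cfb lost its call without Mdr2+/+ replicate 1 or 2 or Mdr2+/- replicate 2 (adjusted p = 0.0601 to 0.0801).

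**Figure D2:**
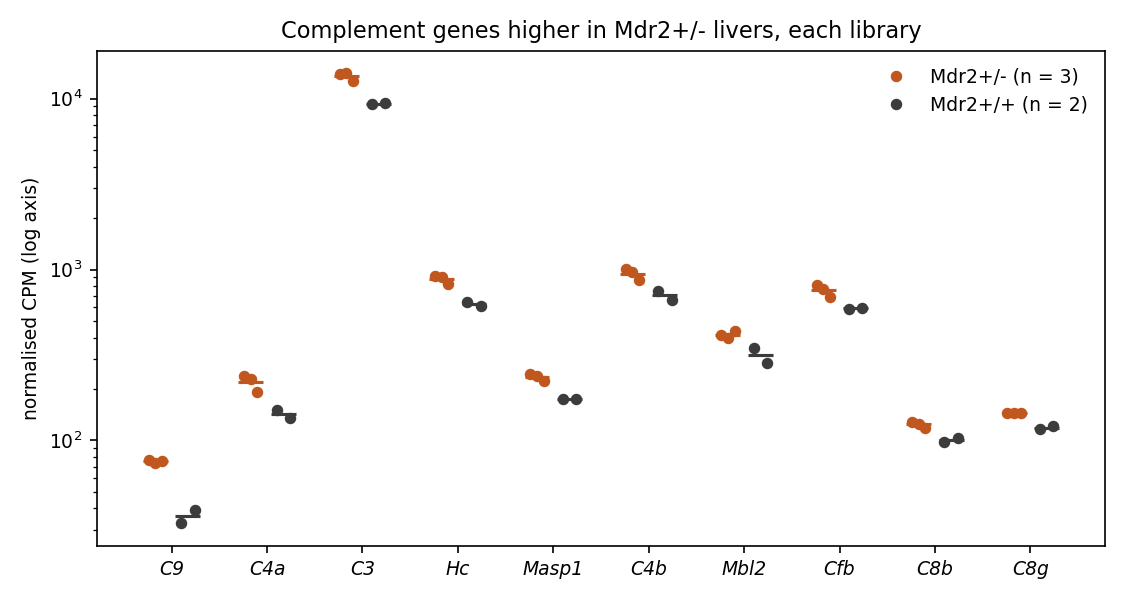
Normalised CPM (log axis) of the 10 complement genes that rose, with a point for each library, a bar for the group mean and Mdr2+/- left of Mdr2+/+ for each gene. In each of the 10 genes all 3 Mdr2+/- points lie above both Mdr2+/+ points, and C3 is at 12694 to 14089 CPM in Mdr2+/- and 9289 to 9385 CPM in Mdr2+/+.

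Upstream sequences are shown for C9, C3 and Hc, 3 of the 5 rises that were called in every alternative fit. RefSeq promoters (GRCm38.p6, C57BL/6J reference and not BALB/C) were matched by gene symbol for 27 of the 36 members, C1s under its current symbol. Each runs from 250 bases before to 50 bases after the gene start. Capitals mark matches to TTGCNNAA, the core that C/EBP factors of the liver bind, or to GTTAAT, a short form of the HNF1 site, with both strands searched. The promoters are those of C9 (chr15:6445096-6445395, plus strand), C3 (chr17:57228087-57228386, minus strand) and Hc (chr2:35061363-35061662, minus strand).
C9: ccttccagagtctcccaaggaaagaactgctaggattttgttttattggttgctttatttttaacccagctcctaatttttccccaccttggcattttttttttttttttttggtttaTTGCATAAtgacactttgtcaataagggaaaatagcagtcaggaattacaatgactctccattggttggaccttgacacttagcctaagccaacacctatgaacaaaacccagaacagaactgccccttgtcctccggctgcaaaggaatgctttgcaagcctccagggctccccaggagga
C3: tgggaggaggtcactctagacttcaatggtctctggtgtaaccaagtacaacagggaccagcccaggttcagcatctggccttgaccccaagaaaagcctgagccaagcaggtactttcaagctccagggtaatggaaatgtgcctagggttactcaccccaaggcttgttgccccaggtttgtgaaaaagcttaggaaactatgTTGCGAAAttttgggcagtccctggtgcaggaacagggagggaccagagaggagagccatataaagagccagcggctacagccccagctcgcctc
Hc: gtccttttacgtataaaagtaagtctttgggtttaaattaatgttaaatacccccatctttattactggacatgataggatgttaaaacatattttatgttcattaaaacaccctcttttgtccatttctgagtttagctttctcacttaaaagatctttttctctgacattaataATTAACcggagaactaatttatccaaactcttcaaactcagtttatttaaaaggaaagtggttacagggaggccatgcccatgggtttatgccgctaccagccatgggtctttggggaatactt
C9 and C3 each hold 1 match to TTGCNNAA, and Hc holds 1 match to GTTAAT, read on the other strand. With 1 promoter taken per gene, TTGCNNAA occurs in 10.8% and GTTAAT in 7.20% of 27025 promoters. Among 16 hepatocyte-made members with a promoter these motifs occur in 5 and 7. Many of these did not pass: C1rl, C1ra and C1s for TTGCNNAA, and C4bp, Cfhr2, C8a, C1ra and Vtn for GTTAAT. A STAT motif, TTCNNNGAA, was searched too. It occurs in 5 of the 16 members and 8.47% of all promoters, but not in C9, C3 or Hc. A match is a run of letters in this window and does not show binding.

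The lectin pathway held 2 rises among 5 tested genes, beside 6.63% that rose among all tested genes. Masp1 (chr16:23449417-23520815, minus strand), a protease that lectins carry, had 244, 237 and 223.5 CPM in Mdr2+/- livers, against 173 and 174 CPM in Mdr2+/+ livers (log2FC 0.43, SE 0.07, adjusted p = 0.00393). Mbl2, mannose-binding lectin C, had 413, 399 and 437 CPM in Mdr2+/- livers, against 346 and 285 CPM in Mdr2+/+ livers (log2FC 0.40, SE 0.09, adjusted p = 0.0189). The groups of both genes were apart, and Masp1 was the steadier of the 2 in Mdr2+/+. Mbl2 lost its call without Mdr2+/+ replicate 2 (log2FC 0.27, adjusted p = 0.0892) or Mdr2+/- replicate 3 (0.0570).

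Mbl1, mannose-binding lectin A, had 138, 149 and 142 CPM in Mdr2+/- livers, against 134 and 148 CPM in Mdr2+/+ livers, with overlapping groups (log2FC 0.02, SE 0.07, adjusted p = 0.859). Masp2, the protease that cuts C4 and C2, had 166, 172 and 167 CPM in Mdr2+/- livers, against 151 and 155 CPM in Mdr2+/+ livers (log2FC 0.14, SE 0.06, adjusted p = 0.161). The groups of Masp2 did not overlap, but it did not pass. Exons of Tardbp on the opposite strand overlap 54.9% of the Masp2 exon bases, and whether counting used the strand is not given in the sources used here.

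The classical pathway proteases did not pass. C1s, the protease that cuts C4, had 338, 304 and 300.02 CPM in Mdr2+/- livers, against 285 and 267 CPM in Mdr2+/+ livers (log2FC 0.18, SE 0.07, adjusted p = 0.137). Its partner C1ra had 209, 204 and 183 CPM in Mdr2+/- livers, against 192 and 166 CPM in Mdr2+/+ livers (log2FC 0.15, adjusted p = 0.292). C1rl, a C1r-like protease, averaged 126 ± 11.3 CPM in Mdr2+/- and 127 ± 1.13 CPM in Mdr2+/+ livers (SD, n = 3 and 2, log2FC -0.01). C1s was apart between the groups, whereas C1ra and C1rl overlapped. C1ra shares 48.0% of its 50-base words with C1rb, and C1s shares 24.3% with C1s2.

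Soluble regulators counted 0 of 6 past the threshold in edgeR, beside 12% of all tested genes in either direction. At an unadjusted edgeR p under 0.05, 2 were higher and 0 lower, beside 3938 of 13959 genes in either direction. DESeq2 called 1 higher, beside 4.99% of all genes it tested. C4bp, the C4b-binding protein, came nearest with 219, 225 and 225 CPM in Mdr2+/- livers, against 162 and 200.03 CPM in Mdr2+/+ livers (log2FC 0.30, SE 0.09, adjusted p = 0.0531). C4bp passed in 4 of 12 alternative fits, DESeq2 among them (adjusted p = 0.0210). Cfhr2, a plasma protein that binds C3 fragments, had 386, 408 and 367 CPM in Mdr2+/- livers, against 322 and 346 CPM in Mdr2+/+ livers (log2FC 0.21, SE 0.07, adjusted p = 0.0822). C4bp and Cfhr2 were both above in every Mdr2+/- library, and Cfhr2 passed in 2 of 12 alternative fits.

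Vtn, vitronectin, which blocks pore insertion, had 3209, 3237 and 3214 CPM in Mdr2+/- livers, against 2935 and 3132 CPM in Mdr2+/+ livers (log2FC 0.09, adjusted p = 0.394). Clu, clusterin, another pore inhibitor, had 836, 919.8 and 936 CPM in Mdr2+/- livers, against 760.3 and 925 CPM in Mdr2+/+ livers (log2FC 0.09, adjusted p = 0.560). Cfi, factor I, the protease that inactivates C3b and C4b, averaged 1129 ± 44.1 CPM in Mdr2+/- and 1054 ± 49.5 CPM in Mdr2+/+ livers (SD, n = 3 and 2, log2FC 0.10, adjusted p = 0.361). Vtn was apart between the groups, and Clu and Cfi overlapped. Serping1, the C1 inhibitor, was the hepatocyte-made member with the lowest log2FC, at 512, 482 and 478 CPM in Mdr2+/- livers, against 583 and 503 CPM in Mdr2+/+ livers (log2FC -0.15, SE 0.08, adjusted p = 0.246).

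The macrophage-made members had mostly negative log2FC, in 6 of 7 genes. By edgeR 0 of 7 rose and 1 fell, beside 6.63% and 5.41% of all tested genes. At an unadjusted edgeR p under 0.05, 0 were higher and 3 lower, beside 3938 of 13959 genes in either direction. DESeq2 called 0 of the 7 in either direction. C1qa, C1qb and C1qc encode the chains of C1q and lie side by side on chromosome 4 (GRCm38, 136880129 to 136898803, minus strand). C1qb had 55.3, 47.9 and 49.4 CPM in Mdr2+/- livers, against 70.7 and 58.1 CPM in Mdr2+/+ livers, with no overlap (log2FC -0.35, SE 0.09, adjusted p = 0.0434). C1qa had 66.7, 69.9 and 62.1 CPM in Mdr2+/- livers, against 95.4 and 68.2 CPM in Mdr2+/+ livers (log2FC -0.31, SE 0.12, adjusted p = 0.129). C1qc had 54.8, 47.1 and 47.6 CPM in Mdr2+/- livers, against 72.1 and 51.4 CPM in Mdr2+/+ livers (log2FC -0.32, SE 0.13, adjusted p = 0.138). In all 3 chains Mdr2+/+ replicate 1 was the highest library, and for C1qa and C1qc Mdr2+/+ replicate 2 lay within the Mdr2+/- range.

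C1qb lost its call without Mdr2+/+ replicate 1 (log2FC -0.20, adjusted p = 0.266), Mdr2+/- replicate 2 (0.128) or Mdr2+/- replicate 3 (0.115), in DESeq2 (0.0510) and with an offset for transcript length (log2FC -0.21, adjusted p = 0.233). Without Mdr2+/+ replicate 1 the log2FC was -0.05 for both C1qa and C1qc. Without Mdr2+/+ replicate 2 it was -0.52 for C1qa (adjusted p = 0.0110) and -0.53 for C1qc (0.0182), and both passed. Per kilobase, the Mdr2+/- livers held 63.7, 46.7 and 41.4 CPM of C1qa, C1qb and C1qc, and the Mdr2+/+ livers 78.6, 59.2 and 51.3 CPM. The chains kept the same order in both genotypes.

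Promoters of C1qb (chr4:136886151-136886450, minus strand) and C1qc (chr4:136892865-136893164, minus strand) are shown beside those of the hepatocyte-made genes. Capitals mark GAGGAA on either strand, a core bound by PU.1, a factor of macrophages.
C1qb: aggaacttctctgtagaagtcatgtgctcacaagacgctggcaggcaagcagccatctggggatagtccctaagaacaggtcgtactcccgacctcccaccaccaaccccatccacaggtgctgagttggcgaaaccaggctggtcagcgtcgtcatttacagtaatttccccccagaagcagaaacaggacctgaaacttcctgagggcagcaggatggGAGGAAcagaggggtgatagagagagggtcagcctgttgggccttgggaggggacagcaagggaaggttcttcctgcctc
C1qc: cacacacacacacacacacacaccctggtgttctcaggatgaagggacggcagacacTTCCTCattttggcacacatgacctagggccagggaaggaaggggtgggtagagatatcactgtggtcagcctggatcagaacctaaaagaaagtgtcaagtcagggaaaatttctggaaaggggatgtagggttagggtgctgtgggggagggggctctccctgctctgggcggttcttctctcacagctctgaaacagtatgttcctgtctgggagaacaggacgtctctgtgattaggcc
GAGGAA occurs once in each, in 4 of the 6 macrophage-made members with a promoter, in 1 of the 16 hepatocyte-made members and in 28.3% of all promoters. Neither printed promoter holds TTGCNNAA or GTTAAT.

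C1q RNA was set beside macrophage markers. Of 13 Kupffer cell and macrophage markers, 1 rose and 3 fell in edgeR, beside 6.63% and 5.41% of all tested genes. DESeq2 called 1 higher and 2 lower. The log2FC was positive in 5 of the 13 markers, and 0 were at 0 counts in all libraries. Their summed level was 894, 846 and 797 CPM in Mdr2+/- livers, against 887 and 680.3 CPM in Mdr2+/+ livers, which overlap. The sum of the C1q chains was 177, 165 and 159 CPM in Mdr2+/- livers, against 238 and 178 CPM in Mdr2+/+ livers. Relative to the marker sum, C1q was at 0.198, 0.195 and 0.200 in Mdr2+/- livers, against 0.269 and 0.261 in Mdr2+/+ livers. This ratio was lower in each Mdr2+/- library than in both Mdr2+/+ libraries, which was not tested. The marker that rose was Slc40a1, the iron exporter ferroportin, which hepatocytes also carry, at 397 ± 12.7 CPM in Mdr2+/- and 298 ± 16.2 CPM in Mdr2+/+ livers (SD, n = 3 and 2). Without it, a choice made after its value was seen, the ratio was 0.365, 0.368 and 0.385 in Mdr2+/- livers, against 0.413 and 0.452 in Mdr2+/+ livers. The markers that fell were the scavenger receptors Msr1, Cd163 and Marco (log2FC -0.56, -0.58 and -1.03). The part of these markers in the C1q values was not tested.

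**Figure D3:**
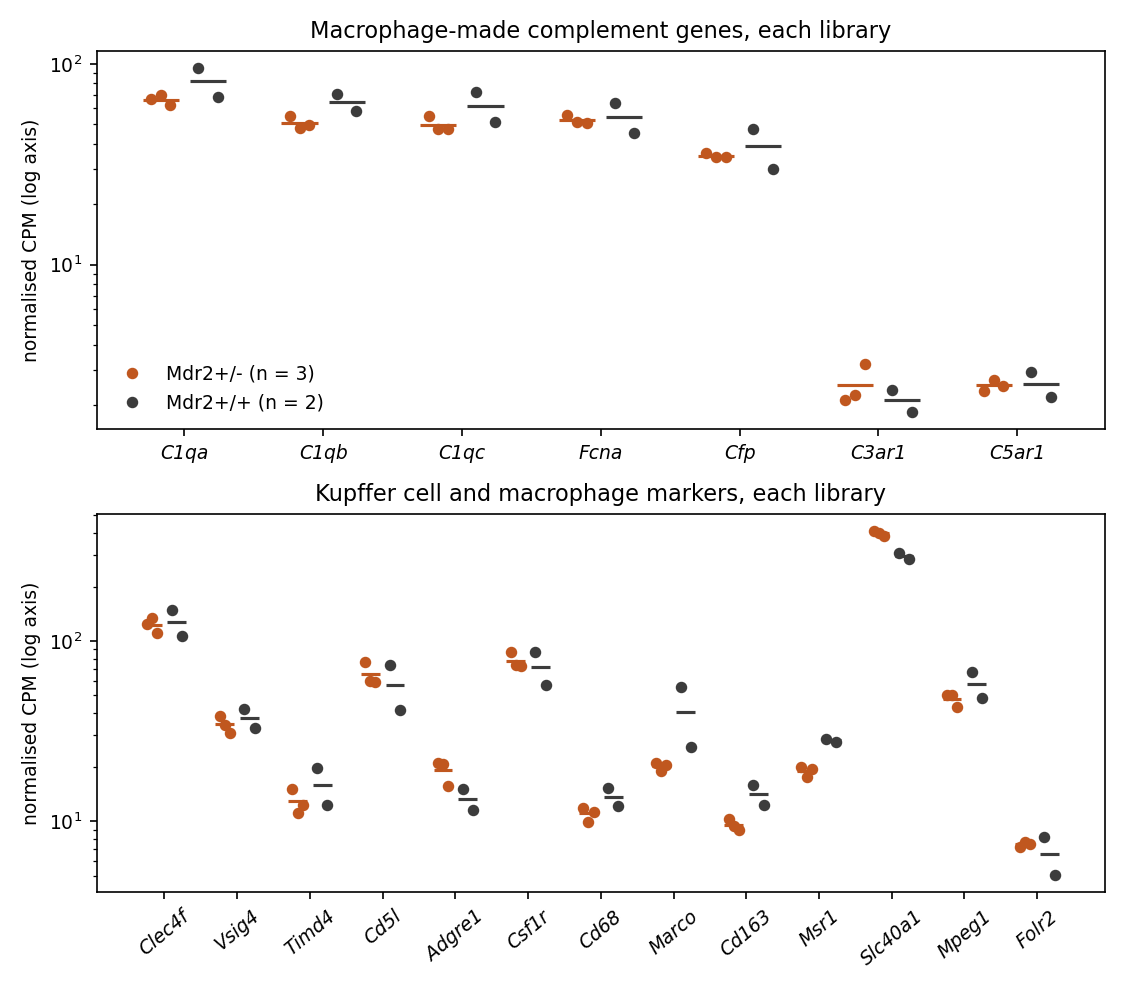
Normalised CPM (log axis) of the 7 macrophage-made complement genes (top) and 13 Kupffer cell and macrophage markers (bottom), with a point for each library, a bar for the group mean and Mdr2+/- left of Mdr2+/+. Mdr2+/+ replicate 1, the left grey point of each pair, is above replicate 2 in each of the 7 complement genes.

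Fcna, ficolin A, a lectin of Kupffer cells, had 55.7, 51.1 and 50.8 CPM in Mdr2+/- livers, against 63.6 and 45.1 CPM in Mdr2+/+ livers (log2FC -0.06, SE 0.12, adjusted p = 0.803). Cfp, properdin, which stabilises the alternative convertase, had 36.03, 34.5 and 34.2 CPM in Mdr2+/- livers, against 47.5 and 30.0 CPM in Mdr2+/+ livers (log2FC -0.16, SE 0.15, adjusted p = 0.525). In both genes the Mdr2+/- libraries lay between the Mdr2+/+ libraries. Without Mdr2+/+ replicate 2 Cfp passed as lower (log2FC -0.44, adjusted p = 0.0186), and without Mdr2+/+ replicate 1 its log2FC was 0.21 (adjusted p = 0.213).

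Receptors for the cleavage peptides were low. C3ar1, the C3a receptor, had 2.12, 2.25 and 3.20 CPM in Mdr2+/- livers, against 2.38 and 1.85 CPM in Mdr2+/+ livers (log2FC 0.25, SE 0.26, adjusted p = 0.571). C5ar1, the C5a receptor, had 2.35, 2.67 and 2.50 CPM in Mdr2+/- livers, against 2.91 and 2.19 CPM in Mdr2+/+ livers (log2FC -0.03, SE 0.21, adjusted p = 0.941). Both overlapped between the groups, and rested on 27 to 55 rounded counts of C3ar1 and 30 to 44 of C5ar1 per Mdr2+/- library, against 22 and 36 of C3ar1 and 26 and 44 of C5ar1 per Mdr2+/+ library.

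Membrane regulators protect host cells. Cd55 (chr1:130439027-130462744, minus strand), decay-accelerating factor, which takes convertases apart, had 12.6, 12.7 and 13.7 CPM in Mdr2+/- livers, against 17.1 and 17.7 CPM in Mdr2+/+ livers. Every Mdr2+/- library lay below both Mdr2+/+ libraries (log2FC -0.42, SE 0.09, adjusted p = 0.0207). Cd55 lost its call without Mdr2+/+ replicate 1 or 2 or Mdr2+/- replicate 2 (adjusted p = 0.0657 to 0.0829) and in DESeq2 (0.101), while its log2FC stayed between -0.46 and -0.39 when each library was left out. Cd55 shares 10.9% of its 50-base words with Cd55b.

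Cd59a, which stops C9 from polymerising, had 58.6, 49.3 and 51.7 CPM in Mdr2+/- livers, against 50.1 and 60.9 CPM in Mdr2+/+ livers (log2FC -0.06, SE 0.10, adjusted p = 0.745). Cr1l, also called Crry, the broad convertase regulator of rodents, had 56.8, 57.8 and 55.4 CPM in Mdr2+/- livers, against 50.8 and 59.5 CPM in Mdr2+/+ livers (log2FC 0.04, SE 0.08, adjusted p = 0.764). Both overlapped. Cd46, which in mice is largely a testis protein, had 2, 1 and 4 rounded counts in Mdr2+/- livers, against 7 and 2 in Mdr2+/+ livers, and Cfd, the adipocyte protease adipsin, had 0, 2 and 2 in Mdr2+/- livers, against 0 and 0 in Mdr2+/+ livers. Neither was tested, and Cfd lay under a floor of 3 counts in every library, which corresponds to 0.173 to 0.231 CPM in Mdr2+/- and 0.205 and 0.251 CPM in Mdr2+/+ libraries.

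Fold changes in these libraries followed transcript length, and several members are long. In 5 equal bins of length, the shortest genes, up to 1848 bases, had a median log2FC of -0.13, and the longest, from 5166 bases, one of 0.11. C3, C4a, C4b, Hc and Masp1 have longest transcripts of 5136 to 5445 bases, while C9 has 2048, Mbl2 1089 and C8g 1150. The C1q chains have 1040 to 1203. Across the 34 tested members log2FC and length had a Spearman rho of 0.52, beside 0.27 over 13571 genes, a description across genes that share the same libraries.

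With an offset for transcript length 11 members rose and 1 fell, beside 5.06% and 3.9% of all tested genes, 8.96% in either direction. The log2FC of C3 was then 0.47 (adjusted p = 0.00351), that of Hc 0.41, of C4a 0.54, of C4b 0.35 and of Masp1 0.36, all past the threshold. C9 had 1.12, Mbl2 0.53 and C8g 0.40, each higher than without the offset. The gene that fell was Cd55 (log2FC -0.41, adjusted p = 0.0265), whereas C1qa, C1qb and C1qc had -0.17, -0.21 and -0.20 and did not pass. The 10 genes that rose without the offset passed with it, and Cfhr2 joined them (log2FC 0.29, adjusted p = 0.0321).

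**Figure D4:**
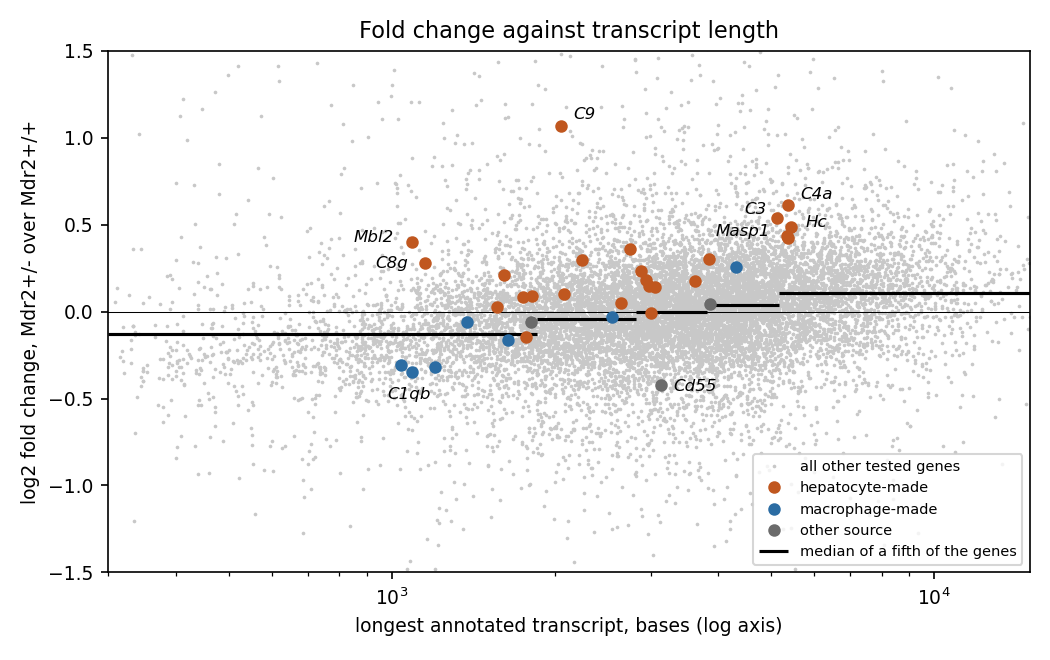
Log2 fold change (y axis, Mdr2+/- over Mdr2+/+) against the longest annotated transcript (x axis, bases, log axis), with tested complement genes coloured by source, all other tested genes in grey and black bars for the median of each of 5 equal bins of genes. The window leaves out 98 genes with a log2FC beyond 1.5 in size and 73 genes outside 300 to 15000 bases; C9, Mbl2 and C8g stand high at short length, and the C1q chains low.

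Other complement genes were read from a list of 26, of which 25 were found and 22 tested. By edgeR 6 rose and 0 fell, beside 6.63% and 5.41% of all tested genes. At an unadjusted edgeR p under 0.05, 10 of the list were higher and 2 lower, beside 3938 of 13959 genes in either direction. DESeq2 called 6 higher and 0 lower, beside 4.99% and 3.75% of all genes it tested. Among those that rose was Cpn2, a subunit of the carboxypeptidase that trims C3a and C5a, at 320.1 ± 7.72 CPM in Mdr2+/- and 241 ± 5.40 CPM in Mdr2+/+ livers (SD, n = 3 and 2, log2FC 0.41, adjusted p = 0.00405). C1s2, a close copy of C1s, averaged 82.4 ± 3.94 CPM in Mdr2+/- and 68.2 ± 2.83 CPM in Mdr2+/+ livers (log2FC 0.27, adjusted p = 0.0310). Fcnb, ficolin B of granulocytes and their precursors, and Itgam, the alpha chain of complement receptor 3, rose as well. Fcnb averaged 3.93 ± 0.740 CPM in Mdr2+/- and 1.23 ± 0.314 CPM in Mdr2+/+ livers (log2FC 1.65), and Itgam 7.12 ± 0.481 CPM in Mdr2+/- and 2.93 ± 0.338 CPM in Mdr2+/+ livers (log2FC 1.27).

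Beside Fcnb and Itgam, 7 of 8 monocyte and neutrophil markers rose and 0 fell, against 6.63% and 5.41% of all tested genes. The summed level of those markers was 343, 383 and 440.2 CPM in Mdr2+/- livers, against 155 and 107 CPM in Mdr2+/+ livers. Their part in the Fcnb and Itgam values was not tested. Of 5 erythroid markers, 0 rose and 4 fell, with a summed level of 221.6, 218.0 and 213.8 CPM in Mdr2+/- livers, against 355 and 300.5 CPM in Mdr2+/+ livers. Sinusoidal endothelium had 0 higher and 1 lower of 5 markers, and stellate cells 1 higher and 0 lower of 5. Cholangiocytes had 0 of 5 called in edgeR or DESeq2. At an unadjusted edgeR p under 0.05 they had 0 higher and 1 lower, beside 3938 of 13959 genes in either direction. The part of these lists in the complement values was not tested.

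Acute phase proteins, which the liver secretes alongside complement in inflammation, counted 5 higher and 1 lower of 15 tested, beside the shares of all genes given above. Saa4 averaged 109.7 ± 3.13 CPM in Mdr2+/- and 75.0 ± 2.35 CPM in Mdr2+/+ livers (log2FC 0.55), and Lcn2, Itih4 and Itih3 rose too (log2FC 0.73, 0.40 and 0.27). Crp (log2FC 0.28) rose and Apcs, serum amyloid P (log2FC -0.27), fell, both named after their values were seen.

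Of 18 factors and receptors known to act on complement genes, 2 rose and 2 fell in edgeR, beside 6.63% and 5.41% of all tested genes. DESeq2 called 2 higher and 1 lower, beside 4.99% and 3.75% of all genes it tested. Of the called genes, 3 are given here. Ppara, a fatty acid sensor, rose and averaged 95.8 ± 18.0 CPM in Mdr2+/- and 52.6 ± 2.41 CPM in Mdr2+/+ livers (log2FC 0.86), and Il6st, the shared receptor of the interleukin-6 family, rose and averaged 78.4 ± 5.12 CPM in Mdr2+/- and 63.5 ± 0.170 CPM in Mdr2+/+ livers (log2FC 0.30). Il1r1, the interleukin-1 receptor, fell in edgeR, close to the threshold (log2FC -0.29, adjusted p = 0.0444). The part of these genes in the complement values was not tested. Markers of hepatocytes counted 0 higher and 2 lower of 8 in edgeR (Apoa1 and Apoa2), and 0 higher and 2 lower by DESeq2. At an unadjusted edgeR p under 0.05, 1 of these markers was higher and 3 lower, beside 3938 of 13959 genes in either direction. Their sum was 240203, 222757 and 221747 CPM in Mdr2+/- livers, against 213719 and 230610.0 CPM in Mdr2+/+ livers.

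How far each value rests on a single library differed between the sources. With each Mdr2+/- library left out in turn, 7 to 10 members rose and 0 to 2 fell. Beside them 838 to 1174 genes were called in either direction among 13726 to 13939 tested. C9, C4a, C3, Hc and Masp1 passed in each of these fits. Leaving out a Mdr2+/+ library leaves 1 library in that group. All 10 genes that rose kept a positive log2FC whichever of the 5 libraries was left out. The median of the hepatocyte-made members was 0.19 to 0.26 on the log2 scale. That of the macrophage-made members was -0.44 without Mdr2+/+ replicate 2 and 0.20 without Mdr2+/+ replicate 1, so its direction changed with the Mdr2+/+ library left out.

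**Figure D5:**
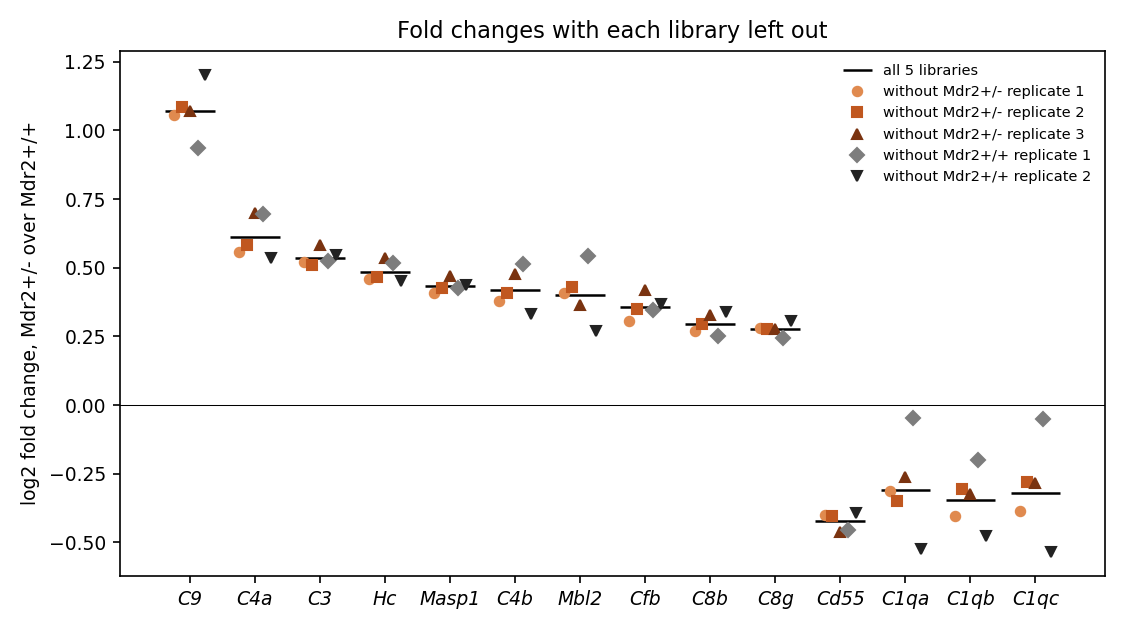
Log2 fold change (Mdr2+/- over Mdr2+/+) of the 10 complement genes that rose, Cd55 and the 3 C1q chains, with all 5 libraries (black bar) and with each library left out (symbols). The 10 rises stay above 0 throughout, while C1qa and C1qc reach -0.05 without Mdr2+/+ replicate 1.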

How the data were processed

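RNA of lobe 1 of the liver was sequenced with the Illumina TruSeq RNA kit, per the labels' protocols, in 3 Mdr2+/- and 2 Mdr2+/+ libraries. The authors deposited 1 table per library of estimated counts per gene, with 33.9 to 37.3% of values above 0 being whole numbers (tolerance 1e-06). The submitters' processing notes name TopHat and mm10. The counting tool, the annotation and whether strand was used are not given there.

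Each estimated count was rounded to a whole number, after which library totals fell by 309.2 counts or less. Genes were filtered with filterByExpr (minimum count 10), leaving 13959 genes with 99.9% of counts. edgeR 4.0.16 in R 4.3.3 was used with TMM scaling, and its quasi-likelihood test compared Mdr2+/- with Mdr2+/+ over all 5 libraries with no covariate. P-values were adjusted by Benjamini-Hochberg over all tested genes, with a threshold of 0.05. SE is the size of the log2FC over the square root of F. Levels per kilobase used the longest GENCODE M21 transcript, and 31782 of 36401 identifiers matched. On simulated counts with 200 changed genes, the test recovered 50.6% of 81 genes changed by 0.5 log2, 87.3% of 55 changed by 1 and 100% of 61 changed by 2, over 13825 genes. Counting floors cover counting error only.

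The members and gene lists were chosen with earlier results of these data known. By the naming rule all 36 members are accounted for, with Abcb4, up to 8 called genes of the other complement list and up to 4 of any other list, by p-value; Alb was added after its values were seen. Some genes of these lists are not reported here. Alternatives were RLE scaling, library size alone, no filter, at least 10 counts in every library, DESeq2 1.42.0, a replicate block, a transcript length offset (lowess over log length) and leaving out each library. Within-genotype library pairs differed more than counting noise (chi-square per degree of freedom 5.31 to 8.88), so no library was counted as a copy of another.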

Additional observations from a re-analysis of the deposited data

How the results depend on the processing

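Of 408 values (34 tested members under 12 alternatives), 358 kept their direction and side of the threshold, 21 lost and 11 gained a call, and 18 changed sign. All 18 sign changes were in members that passed in neither direction with all libraries. The number of genes called among all tested was 1680, and 697 to 1174 with each library left out. It was 697 without Mdr2+/+ replicate 1, 907 without Mdr2+/+ replicate 2, 838 without Mdr2+/- replicate 2 and 1068 without Mdr2+/- replicate 3. Members that rose numbered 10, 7 to 10 with a library left out and 9 to 12 otherwise. Members that fell numbered 2, but 4 with no filter, 1 with the length offset, 0 in DESeq2 (4 at an unadjusted p under 0.05) and 0 to 4 with a library left out. The count was 0 without Mdr2+/+ replicate 1 (edgeR, 1 at an unadjusted p under 0.05) and without Mdr2+/- replicate 2 (3 at that level), 1 without Mdr2+/- replicate 3 and 4 without Mdr2+/+ replicate 2. The median log2FC of hepatocyte-made members was 0.22, and 0.27 with the length offset. That of macrophage-made members was -0.16, with a range of -0.44 to 0.20 when a library was left out. The cause of these changes was not tested.

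The sign changes, as log2FC, were C1rl with the replicate block (0.022), with the length offset (0.0040) and with a library left out (-0.081 to 0.033). Mbl1 was -0.012 by library size and -0.049 to 0.096 with a library left out. Fcna (0.042) and Cd59a (0.0059) changed sign with the length offset. With a library left out Fcna ranged from -0.28 to 0.21, Cfp from -0.44 to 0.21, C6 from -0.072 to 0.69, Clu from -0.048 to 0.24, Cd59a from -0.20 to 0.087, Cr1l from -0.074 to 0.16 and C5ar1 from -0.20 to 0.20.

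The genotypes share only the replicate numbers 1 and 2. Same-numbered libraries deviated together weakly (correlation 0.03 for each). Deviations from the mean of 2 Mdr2+/+ libraries mirror each other, so these values cannot decide whether the numbers are pairs. The main fit did not use the numbers as pairs. With the replicate block 1277 genes were called, and 9 members rose and 2 fell; C8g lost its call (adjusted p = 0.0547). With 2 Mdr2+/+ libraries a single library weighs heavily. A level under 0.173 to 0.251 CPM, 3 counts, is not told from 0.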
